A study of Mus musculus with 4 samples.

Results

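The interferon-induced genes described here are 38 mouse genes that type I or type II interferon switches on, taken from a list of symbols and followed over 4 liver arrays. A gene was measured where the platform annotation gave at least 1 probe set with its symbol and no other, which held for 35 of the 38. Isg15, Ifi44 and Tgtp1 are not analysed here. Expression is given in log2 units, and a signal under 4 was counted as too dim to be measured. Of the 35 genes, 31 were at 4 or more on all 4 arrays, and 4 were below 4 on all 4, namely Ifit2 (at most 3.58), Oas2 (at most 3.35), Mx1 (at most 2.34) and Mx2 (at most 2.56). Ifit2 binds viral RNA, Oas2 makes the messenger that activates RNase L, and Mx1 and Mx2 are GTPases that trap viral particles, of which C57BL/6 mice carry a defective Mx1. The limit of 4 therefore removed no gene because of its level in one group only. The whole table held 18194 genes with a probe set of a single symbol, and 8650 of them reached 4 on at least 1 array.

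Livers came from male C57BL/6J mice that were 8 to 12 weeks old when the diets began. Their food took 10% (low-fat diet, LFD) or 45% (high-fat diet, HFD) of its energy from fat, as palm oil in place of lard, and was given for 20 weeks. In the final week they were injected 2 times into the peritoneum with clodronate liposomes, which kill phagocytes that swallow them, or with phosphate-buffered saline (PBS). RNA of 8 mice for each low-fat group and 10 mice for each high-fat group was pooled in equal amounts onto 1 array per group, from 36 mice in all. The comparison asks what liver macrophages contribute on each diet. Because the control was PBS and not empty liposomes, the carrier, the drug and the loss of phagocytes come together in every clodronate comparison. No group had a second array, so a difference between 2 arrays has no replicate check, and a test was possible only for a factor averaged over the other one.

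Interferons are secreted proteins that signal through JAK kinases to STAT transcription factors. Type I interferons, such as interferon-β, act through the receptor Ifnar1/Ifnar2 and a complex that includes Stat2 and Irf9 and binds the interferon-stimulated response element (ISRE) in promoters. Type II interferon (Ifng) acts through Ifngr1/Ifngr2 and on promoters with gamma-activated sites (GAS). The induced genes include sensors of viral RNA and DNA, enzymes that block viral RNA and protein synthesis, and large GTPases that attack vacuoles holding microbes. Hepatocytes, endothelial cells and macrophages of the liver can all respond to interferon. In whole liver RNA, fewer cells of a type and less RNA per cell cannot be told apart.

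The response element can be read in the promoters of many of these genes. Promoters of 300 bases (250 before to 50 after a RefSeq start, build GRCm38.p6) were given for 27 of the 38 listed genes, counting undetected ones. The ISRE core GAAANNGAAA, searched on both strands, was in 17 of the 27 (63.0%), and in 3.99% of the 27025 genes with a promoter in the table. The GAS letters TTCNNNGAA, which read the same on both strands, were in 9 of the 27 (33.3%) and in 9.55% of all genes. Matches of both kinds overlapped in 1 of 29 promoter windows of the genes measured here, some of which have several starts. A match is a description of the letters and not a bound site. The stretches below come from RefSeq, run 5′ to 3′ on the strand of the gene, lie upstream of its start, and carry each whole ISRE match in capitals. They were chosen to set the 5 genes with the largest mean clodronate differences among the 15 detected genes with an ISRE match (Trim30a, Gbp2, Rsad2, Ifit3 and Ifit1) beside genes with the same element and smaller differences.
Trim30a, chr7:104465195-104465254, minus strand: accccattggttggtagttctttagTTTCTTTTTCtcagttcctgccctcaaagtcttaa
Gbp2, chr3:142620579-142620638, plus strand: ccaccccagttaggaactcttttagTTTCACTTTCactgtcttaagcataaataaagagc
Rsad2, chr12:26456538-26456597, minus strand: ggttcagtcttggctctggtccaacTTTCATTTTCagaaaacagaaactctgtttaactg
Ifit3, chr19:34583382-34583441, plus strand: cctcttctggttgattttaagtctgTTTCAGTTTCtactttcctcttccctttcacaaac
Ifit1, chr19:34640779-34640838, plus strand: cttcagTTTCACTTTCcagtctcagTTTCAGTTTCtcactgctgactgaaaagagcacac
Gbp3, chr3:142559980-142560039, plus strand: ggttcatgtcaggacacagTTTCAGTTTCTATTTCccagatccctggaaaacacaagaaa
Gbp7, chr3:142530258-142530317, plus strand: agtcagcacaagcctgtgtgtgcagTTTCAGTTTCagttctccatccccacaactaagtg
Igtp, chr11:58199497-58199555, plus strand: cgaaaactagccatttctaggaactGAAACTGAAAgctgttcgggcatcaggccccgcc
Irgm2, chr11:58214888-58214947, plus strand: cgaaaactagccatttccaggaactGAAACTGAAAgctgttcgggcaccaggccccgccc
Bst2, chr8:71537562-71537621, minus strand: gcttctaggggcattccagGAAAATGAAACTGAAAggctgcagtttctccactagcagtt

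Few interferon-induced genes passed the test for clodronate, and those that lay apart were lower. Averaged over the diets, 1 of the 31 detected genes fell and 0 rose (limma with Benjamini-Hochberg adjustment over all 8650 genes, adjusted p under 0.05; 4 genes at an unadjusted p under 0.05). Over all genes tested 84 fell, 0.971%, and 10 rose, 0.116%, while 410 of the 8650 were at an unadjusted p under 0.05 (limma). The gene that fell was Trim30a, a tripartite-motif protein induced by interferon that restrains Toll-like receptor signalling in macrophages. The other 3 of the 31 genes at an unadjusted p under 0.05 were Gbp2, Dhx58 and Rsad2. Each was lower after clodronate on both diets without passing the adjusted test.

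The pairs of arrays give the values diet by diet. On the low-fat diet the median difference of the 31 genes, clodronate minus PBS, was -0.08 (log2), with 20 genes below 0 and 11 above, beside a median of 0.04 and 38.9% below 0 over all genes tested. Trim30a, Gbp2, Ifit3, Dhx58 and Rsad2 were 1.5-fold or more lower and 0 genes were as much higher, where 1.63% of all genes were lower and 1.75% higher by that size. On the high-fat diet the median was -0.09, with 24 genes below 0 and 7 above, beside -0.05 and 61.3% below 0 over all genes. There, 2 genes, Trim30a and Gbp2, were 1.5-fold or more lower and 0 were higher, where 2.98% of all genes were lower and 0.636% higher. No interferon-induced gene was 2-fold apart in either pair, and 11 of the 31 (35.5%) were within 0.2 of PBS on both diets, a limit chosen after the values were seen, beside 55.0% of all genes. The counts below 0 depend on the scaling of the arrays. With each array centred on its median over the genes tested they were 24 under low-fat and 19 under high-fat feeding. The medians of the 31 genes were then -0.12 and -0.03, beside 0.004 and 0.015 over all genes tested.

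The 4 arrays can also be read for overlap. In 11 of the 31 genes (35.5%) both clodronate pools were below both PBS pools, where 13.2% of all genes were, and in 0 they were above, where 11.3% of all genes were. The 11 were Trim30a, Gbp2, Dhx58, Rsad2, Oasl2, Irf7, Ifit1, Parp14, Rtp4, Igtp and Irgm1. In Igtp, Ifit1, Oasl2, Irf7 and Irgm1 the gap between the lower PBS pool and the higher clodronate pool was small. With each array centred on its median the count stayed at 11, with Eif2ak2 in place of Ifit1, beside 12.0% of all genes, while 2 genes (6.45%), Ddx58 and Irgm2, then had both clodronate pools above both PBS pools, beside 14.1%. By diet, both high-fat pools were below both low-fat pools in Bst2, Ly6e and Stat2, 3 of 31 beside 29.5% of all genes. They were above in Gbp6, Gbp7, Irf1, Ifi35 and Ifih1, 5 of 31 (16.1%) beside 16.4% of all genes. With centred arrays these diet counts were 2 below (6.45%) beside 21.6% of all genes, and 9 above (29.0%) beside 23.7%.

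**Figure D1:**
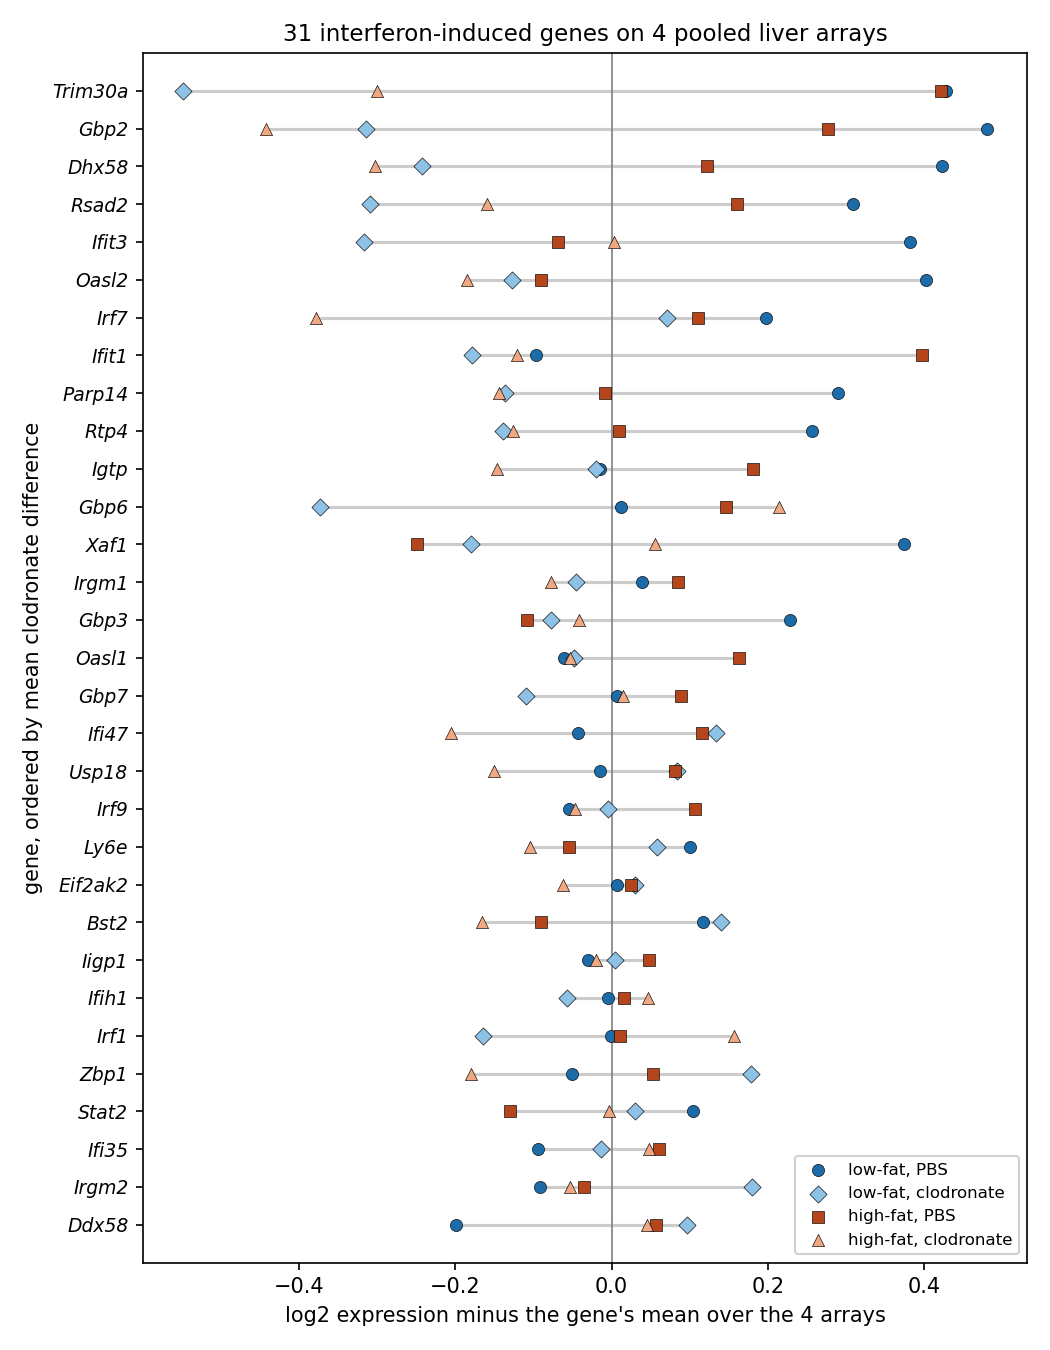
Each row is 1 of the 31 detected interferon-induced genes, and the 4 symbols are its log2 values on the 4 pooled arrays minus the gene's own mean, with a grey line over their range. Trim30a, Gbp2, Dhx58 and Rsad2 at the top have both clodronate symbols well to the left of both PBS symbols, and for Ifit3, Oasl2, Parp14, Rtp4, Gbp3 and Xaf1 the low-fat PBS pool stands to the right of the other 3.

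**Figure D2:**
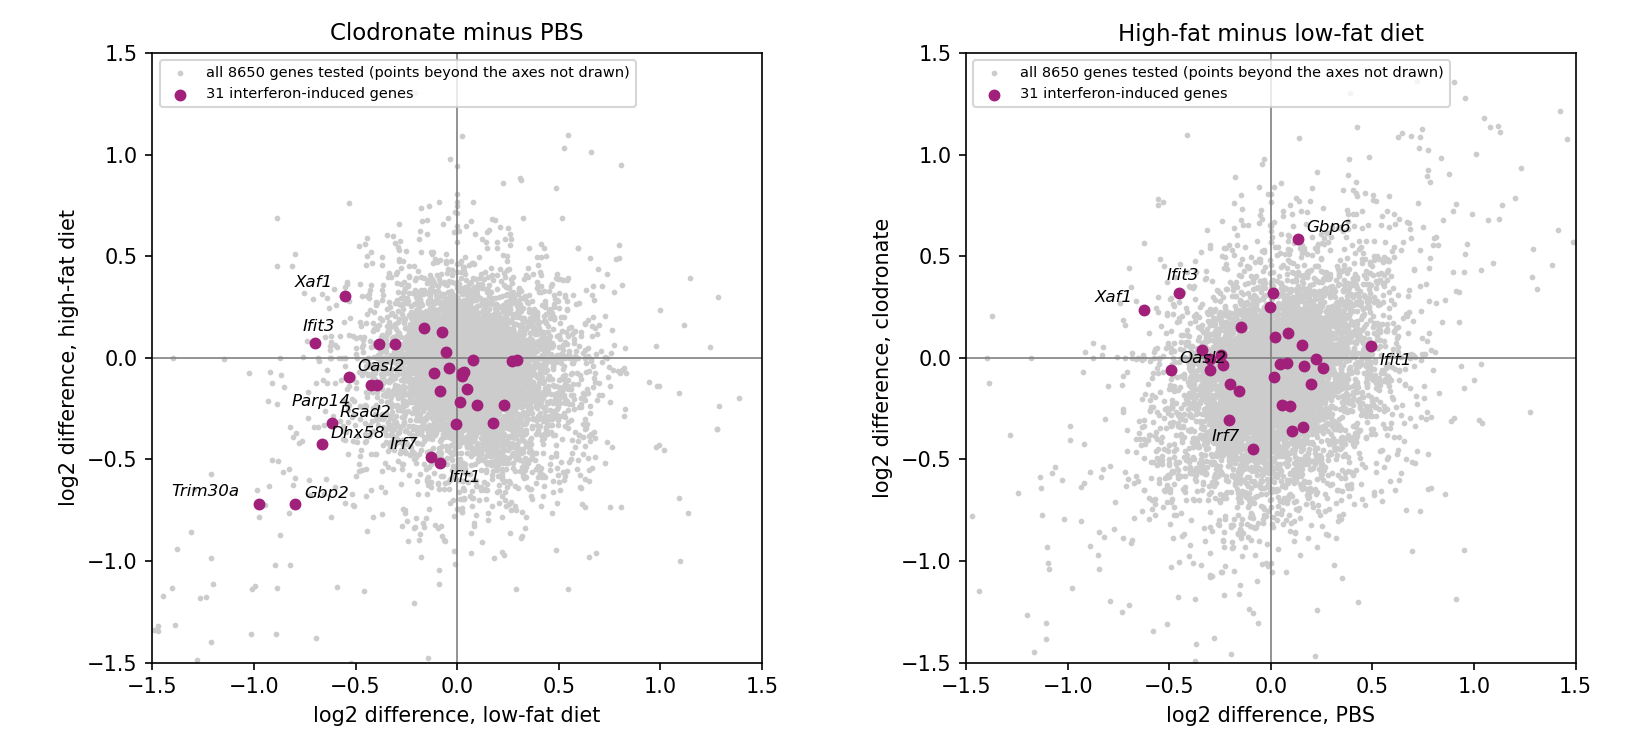
The left plot sets the log2 difference clodronate minus PBS on the low-fat diet (horizontal) against that on the high-fat diet (vertical), and the right plot sets high-fat minus low-fat with PBS against the same with clodronate. Grey points are the genes tested and purple points the 31 interferon-induced genes, named where a difference reached 0.4. Trim30a and Gbp2 lie at the lower left of the left plot, and on the right most purple points lie in the middle of the grey cloud. The axes of a plot share no array, while each array serves in both plots.

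The median range of these genes over the 4 arrays was close to that of all genes tested. The median size of the high-fat minus the low-fat clodronate difference was 0.29, beside 0.18 over all genes tested. It was 1.5-fold or more in 2 of the 31 (6.45%), beside 9.06% of all genes, so the 2 measures went opposite ways. Values below 4 were taken as 4 for these differences, and none of the 31 genes had such a value. The median range was 0.33, from 0.08 for Iigp1 to 0.98 for Trim30a, and over all genes tested it was 0.30. The pool of low-fat mice with PBS held the highest value of 13 of the 31 genes (41.9%) and of 23.9% of all genes. The pool of high-fat mice with clodronate held the lowest value of 13 (41.9%), close to the 40.0% of all genes that were lowest there.

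The RNA of liver macrophages was far lower in both clodronate pools, and these values stand beside every difference below. Among 12 markers of Kupffer cells 11 fell, C6 being the exception, and among 12 detected macrophage markers 11 fell, with Mpeg1 as the exception (limma with Benjamini-Hochberg adjustment). Without the mean-dependent prior of limma 6 of these 11 Kupffer cell calls and 9 of these 11 macrophage calls were kept. The log2 of the summed macrophage signal was 12.49 and 12.38 with PBS on the low-fat and high-fat diet, and 10.01 and 10.04 with clodronate. The summed Kupffer cell signal was 12.90 and 12.79 with PBS, and 11.45 and 11.28 with clodronate. Of 13 measured macrophage markers 6 were below 4 in each clodronate pool and 1 in each PBS pool, and of 12 Kupffer cell markers 7 and 6 against 0 and 2. Among the called markers, Clec4f, Vsig4, Timd4, Marco, Folr2, Cd163, Adgre1, Cd68, C1qa, C1qc and Aif1 reached 4 only on PBS arrays. Their calls rest on values below that limit, so these calls are a description and no support. Clec4f, a lectin of Kupffer cells, was at 9.40 and 9.42 with PBS and below 4 with clodronate (1.92 and 1.88). Hepatocyte, sinusoidal endothelial and stellate cell markers had 0 calls among 10, 12 and 8 detected genes, and all 13 measured T and NK cell markers were below 4 on every array. At an unadjusted p under 0.05 there were 0, 2 and 0 of them. Ighm, the immunoglobulin heavy chain of B cells, was at 6.14 and 6.25 with PBS and 6.80 and 7.26 with clodronate, 1.58-fold and 2.02-fold apart, and did not pass (adjusted p = 0.0559 by limma with Benjamini-Hochberg adjustment). S100a8 and S100a9 of neutrophils reached 4 in the low-fat clodronate pool only, at 4.15 and 4.05, and did not pass (adjusted p = 0.392 and 0.840 by limma with Benjamini-Hochberg adjustment). Ighm was the only 1 of 6 measured B cell markers to reach 4 on any array. Of 7 measured neutrophil markers only S100a8 and S100a9 did, so neither cell type is read from its markers as a set. How far the loss of macrophage RNA, or these B cell and neutrophil transcripts, accounts for each difference in the interferon-induced genes was not tested.

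Trim30a was read by a pair of probe sets. The probe set used was at 7.22 with PBS and 6.24 with clodronate on the low-fat diet, and at 7.21 and 6.49 on the high-fat diet. Both clodronate pools were thus below both PBS pools, 1.97-fold under low-fat and 1.65-fold under high-fat feeding. Its mean difference was -0.85 ± 0.18 (SD, n = 2 diets; SE of the fit 0.16; adjusted p = 0.0354 by limma with Benjamini-Hochberg adjustment). Its other probe set, at 6.28, 5.57, 6.06 and 5.09 in the order low-fat PBS, low-fat clodronate, high-fat PBS and high-fat clodronate, differed by -0.71 and -0.97. The call was lost under 7 of 9 other settings (adjusted p from 0.0801 to 0.215 by limma with Benjamini-Hochberg adjustment), among them no mean-dependent prior, centred arrays and quantile normalization, while the mean difference lay between -0.83 and -0.85 under all 9. Trim30a has close paralogues beside it in the genome, and the share of its signal that comes from them was not tested.

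Gbp2, a guanylate-binding GTPase that coats vacuoles of intracellular microbes, had nearly the same difference. It was at 5.61 with PBS and 4.81 with clodronate on the low-fat diet, and at 5.40 and 4.68 on the high-fat diet, with no overlap between PBS and clodronate. The mean difference was -0.76 ± 0.05 (SD, n = 2 diets) but did not pass (adjusted p = 0.233 by limma with Benjamini-Hochberg adjustment). Its second, dimmer probe set did not share the difference on the low-fat diet, at 4.60 and 4.64, and went from 4.87 to 3.81, below the limit of 4, on the high-fat diet.

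Among the 5 sensors of viral nucleic acid in the 31 genes, Dhx58 (LGP2), a helicase that tunes RIG-I and MDA5, had the largest clodronate differences. It was at 5.11 and 4.44 on the low-fat diet and at 4.81 and 4.38 on the high-fat diet, a mean difference of -0.55 ± 0.17 (SD, n = 2 diets; adjusted p = 0.840 by limma with Benjamini-Hochberg adjustment). Its other 2 probe sets were below 4 on all arrays. The helicases it works with had smaller differences. Ifih1 (MDA5), which binds long double-stranded RNA, lay between 8.52 and 8.63 on the 4 arrays. Ddx58 (RIG-I), which binds RNA ends with a triphosphate, was at 5.22, 5.52, 5.48 and 5.46 in the order low-fat PBS, low-fat clodronate, high-fat PBS and high-fat clodronate. A second probe set of Ddx58 was lower after clodronate, by -0.40 and -0.35, so its direction rests on the probe set. Eif2ak2 (PKR), the kinase that stops translation on double-stranded RNA, lay between 7.17 and 7.27. Another, dimmer probe set of Eif2ak2 differed by -0.31 under low-fat and 0.15 under high-fat feeding. Zbp1, which senses left-handed nucleic acid and starts cell death, was dim at 4.42, 4.64, 4.52 and 4.29, with a difference of 0.23 under low-fat and -0.23 under high-fat feeding.

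None of the transcription factors Irf1, Irf7, Irf9 and Stat2 and the feedback inhibitor Usp18 passed the test for clodronate (all adjusted p = 1.0 by limma with Benjamini-Hochberg adjustment). Irf9, the DNA-binding part of the type I complex, lay between 7.04 and 7.21, and Stat2, its partner, between 7.02 and 7.25. Irf1, a first-wave target of type II interferon, was at 7.58 with PBS and 7.42 with clodronate on the low-fat diet and at 7.60 and 7.74 on the high-fat diet, opposite in sign. Irf7, which amplifies type I interferon production and is itself induced, was at 5.16, 5.03, 5.07 and 4.58 in the array order above, so that the high-fat clodronate pool was lowest. Its clodronate differences were -0.13 and -0.49. Usp18, which strips Isg15 from proteins and blocks the type I receptor, lay between 6.31 and 6.54.

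Among the antiviral effectors, Rsad2, Ifit3 and Oasl2 were highest in the low-fat PBS pool, and Ifit1 and Oasl1 in the high-fat PBS pool. Rsad2 (viperin), which makes a chain-ending nucleotide, was at 6.37 and 5.76 under low-fat and at 6.23 and 5.91 under high-fat feeding, a mean difference of -0.47 ± 0.21 (SD, n = 2 diets; adjusted p = 0.839 by limma with Benjamini-Hochberg adjustment). Of its other probe sets, the brighter differed by -0.41 under low-fat and 0.01 under high-fat feeding. Ifit3, which binds viral RNA together with Ifit1, was at 6.91 with PBS and 6.22 with clodronate on the low-fat diet, and at 6.46 and 6.54 on the high-fat diet. Thus 1 array, the low-fat PBS pool, stood above the other 3. Ifit1 had another order, at 4.48, 4.40, 4.98 and 4.46, with the high-fat PBS pool highest. Both Ifit1 and Ifit3 carry a pair of ISRE matches and lie near each other on chromosome 19. A link between these matches and the order of the arrays was not tested. Oasl2, a 2'-5' oligoadenylate synthetase-like protein, was at 4.85 in the low-fat PBS pool and between 4.26 and 4.35 in the other 3. Oasl1, its direct neighbour, lay between 5.44 and 5.66 with the high-fat PBS pool highest.

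Xaf1, a partner of apoptosis inhibitors, had the widest split between the diets, at 7.10 and 6.54 under low-fat and 6.47 and 6.78 under high-fat feeding. Its clodronate differences were -0.55 and 0.31. Parp14, an ADP-ribosyltransferase, was at 7.35 in the low-fat PBS pool and between 6.92 and 7.05 in the other 3. Rtp4, a receptor chaperone with antiviral action, showed the same shape, at 8.28 against 7.89 to 8.03. The clodronate differences were -0.43 and -0.14 for Parp14 and -0.39 and -0.14 for Rtp4, and neither passed (both adjusted p = 1.0 by limma with Benjamini-Hochberg adjustment). Dimmer probe sets near the limit of 4 differed by 0.06 and -0.02 for Parp14 and by -0.33 and 0.22 for Rtp4. Bst2 (tetherin), which holds virions at the cell surface, lay between 10.14 and 10.45. Ly6e, a surface protein that limits entry of coronaviruses, lay between 12.21 and 12.42. Ifi35, a partner of Nmi in the cytosol, lay between 9.97 and 10.12. With the probe sets used, Bst2, Ly6e and Ifi35 each differed by at most 0.08 between clodronate and PBS on either diet. Dimmer probe sets of Ifi35 differed by -0.13 and -0.16 and by 0.06 and -0.09. Bst2 is also a marker of plasmacytoid dendritic cells, of which only it and Tcf4 of 7 measured markers reached 4.

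Of 9 interferon-inducible GTPases, only Gbp2 was 1.5-fold or more apart between clodronate and PBS. Gbp3 was at 6.14 in the low-fat PBS pool and between 5.80 and 5.87 in the others, and Gbp7 lay between 7.02 and 7.21. A second, dimmer probe set of Gbp7 differed by 0.34 under low-fat and -0.46 under high-fat feeding. Gbp6 was at 7.44, 7.05, 7.57 and 7.64, so that clodronate differed by -0.38 under low-fat and 0.07 under high-fat feeding. Its second probe set differed by -0.26 and -0.24, so the split between the diets rests on the probe set. Gbp2, Gbp3 and Gbp7 lie in 1 cluster on chromosome 3, with at most 1 other protein-coding gene between neighbours, and each carries the ISRE core printed above. Among the immunity-related GTPases, which disrupt the vacuoles of microbes such as Toxoplasma, Irgm1 lay between 8.44 and 8.60, and Iigp1 between 11.94 and 12.02. Ifi47 was at 7.70 and 7.88 on the low-fat diet and at 7.86 and 7.54 on the high-fat diet, opposite in sign. Igtp was at 8.26, 8.25, 8.45 and 8.12, and its direct neighbour Irgm2 was at 9.02, 9.29, 9.08 and 9.06. Between clodronate and PBS, Igtp differed by -0.01 and -0.33 and Irgm2 by 0.27 and -0.02, and neither passed the test. The printed Igtp and Irgm2 stretches were identical at 57 of 59 aligned positions. Whether the promoters bear on these differences was not tested.

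Genes with and without the ISRE core overlapped in their clodronate differences. Among 23 detected genes with a promoter, the 15 with a match had a median mean clodronate difference of -0.12, from -0.85 to 0.14. The 8 without a match had a median of -0.09, from -0.31 to 0.03, inside the range of the others. These medians describe genes that share 4 arrays, and no test was made of them.

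**Figure D3:**
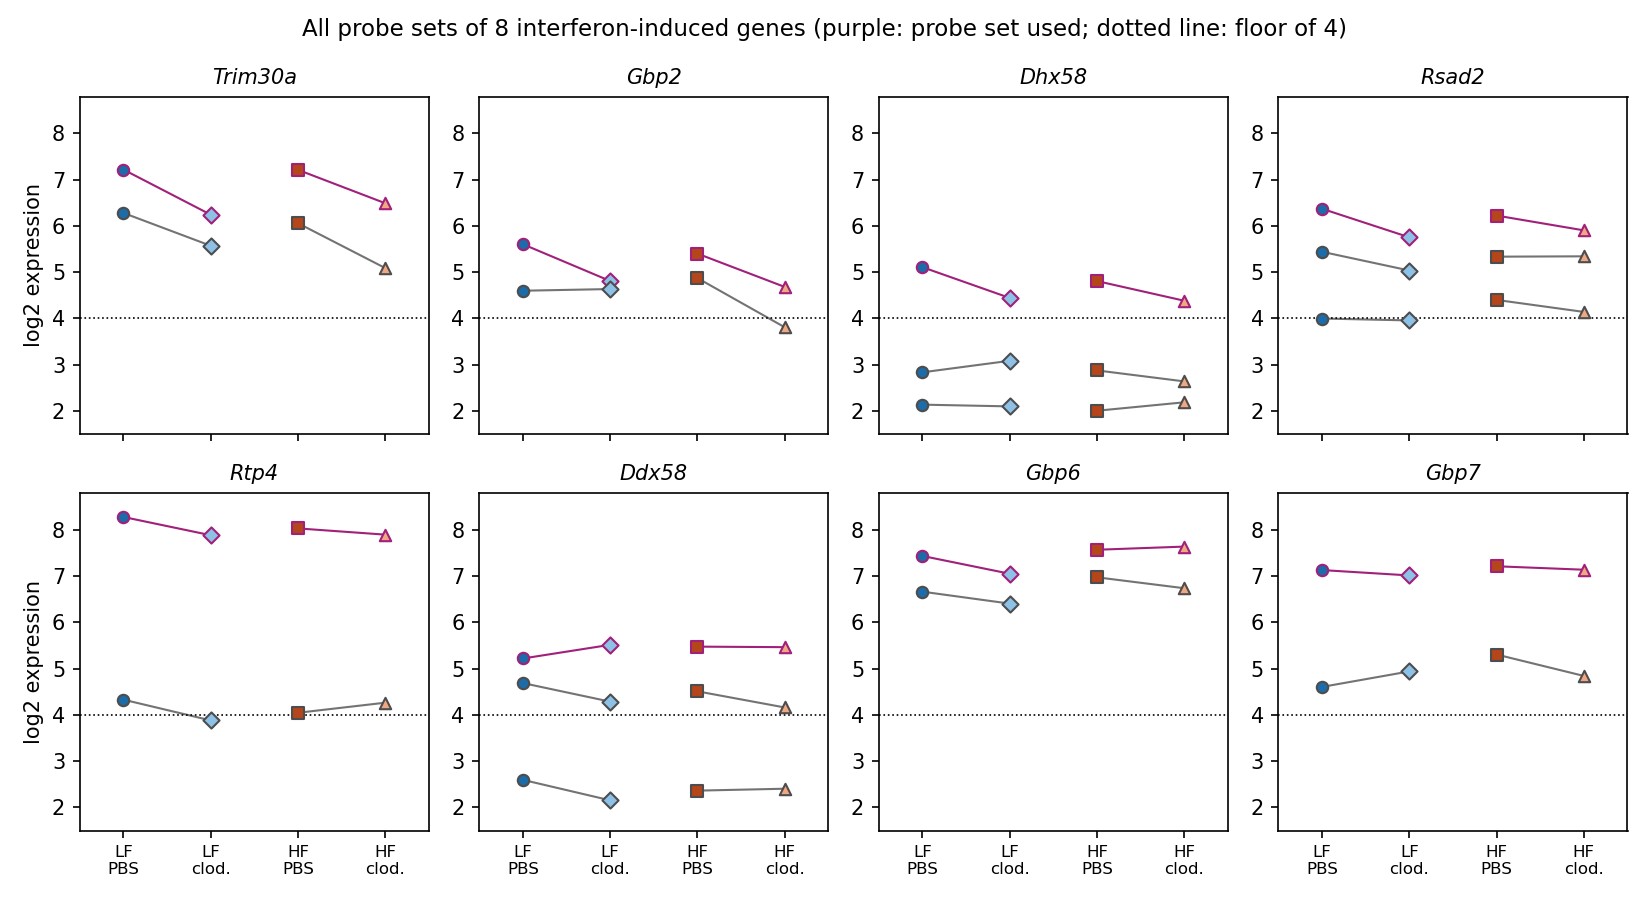
Each panel is 1 gene, with the log2 value of all its probe sets on the 4 arrays (LF, low-fat; HF, high-fat; clod., clodronate), lines joining PBS to clodronate within a diet, the probe set used in purple and the limit of 4 dotted. Both Trim30a lines slope down on both diets. The 2 Gbp2 lines part on the low-fat diet, and the Ddx58, Gbp7 and Rtp4 lines do not all run the same way.

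Other probe sets test how far a direction belongs to the gene. Of the 31 genes, 12 had several probe sets at 4 or more. All probe sets of a gene had the same sign of clodronate difference on both diets for 1 of the 12, Trim30a. On the low-fat diet alone 3 of the 12 agreed in sign (Trim30a, Gbp6 and Rtp4), and on the high-fat diet alone 7 did. Values below 4 were taken as 4 here, and a difference of 0 counted as no shared sign. All 3 Rsad2 probe sets were lower as deposited on the low-fat diet, but 1 of them lay below 4 on both low-fat arrays. The probe sets that parted in sign include those of Gbp2 and Rsad2 named above.

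Upstream of these genes, interferon transcripts were hardly seen. Of 12 measured ligands and inducers only Ifna2 and Il18 reached 4. Ifnb1 was at most 2.17 and Ifng at most 1.66, and Ifna2 was dim at 4.64, 4.20, 4.73 and 4.68 in the array order above. Il18, a cytokine that promotes Ifng production, lay between 7.86 and 7.89. Among 13 detected receptor and JAK-STAT genes, 0 were called for clodronate and 0 for diet, with 3 and 0 at an unadjusted p under 0.05 (limma with Benjamini-Hochberg adjustment). Ifnar2 lay between 9.86 and 10.00, and Ifngr1 was at 6.56 and 6.31 under low-fat and 6.45 and 5.64 under high-fat feeding. Il10rb, a chain of the interferon-λ receptor, had a similar order, at 6.66, 6.40, 6.56 and 5.81. The clodronate differences of Ifnar1 and Ifngr2 were 0.66 and 0.49 under low-fat feeding, and -0.38 and -0.28 under high-fat feeding, the last against a value just below 4. Irf8, a myeloid interferon-regulatory factor, was at 4.59, 4.08, 4.54 and 4.25, and Stat3 at 9.82, 10.22, 9.85 and 9.98.

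The inhibitors of JAK-STAT signalling, without Usp18, had 9 detected genes with 0 calls for clodronate and 0 for diet (limma with Benjamini-Hochberg adjustment; 1 and 3 at an unadjusted p under 0.05). The largest differences were those of Cish and Socs2, cytokine-inducible inhibitors that also curb growth hormone signalling, and they ran in opposite directions on the diets. Ptpn1, a phosphatase of JAK kinases, was lower after clodronate on both diets, by -0.39 and -0.33, and did not pass (adjusted p = 1.0 by limma with Benjamini-Hochberg adjustment). Ptpn2 and Ptpn6, other phosphatases of this signalling, differed by -0.35 and 0.12 and by -0.15 and -0.29. Pias1, an inhibitor of STAT binding to DNA, was at 5.89, 6.23, 5.99 and 5.86 in the array order above.

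Of 8 detected genes for sensing of nucleic acid, 1 fell after clodronate, Ifi204, a p200-family protein of macrophages that detects DNA. It was at 4.62 and 4.34 with PBS and below 4 with clodronate (3.08 and 3.21), at least 1.54-fold and 1.26-fold lower. The fitted mean difference of -1.33 ± 0.29 (SD, n = 2 diets; adjusted p = 0.0263 by limma with Benjamini-Hochberg adjustment) rests on values below that limit. Ifi204 entered the test only through the PBS arrays, where it is high, so its call is a description and no support, and without the mean-dependent prior the adjusted p was 0.0933. Tlr3, an endosomal receptor for double-stranded RNA, was dim at 4.04, 4.08, 3.82 and 4.09 in the array order above, and Myd88, the adaptor of most other Toll-like receptors, was at 5.31, 5.43, 5.20 and 4.98. Ikbke, a kinase that activates interferon-regulatory factors, differed by -0.36 and -0.30, and Ticam1, the adaptor of Tlr3, by -0.11 and -0.48. Unc93b1, which carries Toll-like receptors to endosomes, differed by -0.19 and -0.37.

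Among 34 other detected interferon-induced genes, 2 fell and 0 rose (limma with Benjamini-Hochberg adjustment; 4 at an unadjusted p under 0.05). Gbp8 was at 4.99 and 4.65 with PBS and below 4 with clodronate (3.09 and 2.73), at least 1.98-fold and 1.57-fold lower (adjusted p = 0.00166 by limma with Benjamini-Hochberg adjustment). It too reached 4 only on the PBS arrays, so its call rests on values below the limit and supports nothing. Cxcl9, a chemokine for T cells induced by type II interferon, was at 8.15 and 6.62 on the low-fat diet and at 8.08 and 7.19 on the high-fat diet. It fell by 1.21 ± 0.45 (SD, n = 2 diets; adjusted p = 0.00594 by limma with Benjamini-Hochberg adjustment), and the call was lost without the mean-dependent prior (adjusted p = 0.266 with Benjamini-Hochberg adjustment). Cxcl10, a chemokine for the same receptor, differed by -0.74 under low-fat and 0.08 under high-fat feeding, and Cmpk2, a mitochondrial nucleotide kinase next to Rsad2, by -0.64 against a value below 4 and by -0.06. Ifi27l2a differed by -0.38 and -0.64 and Trim12a by 0.47 and 0.22, and neither passed (adjusted p = 0.735 and 1.0 by limma with Benjamini-Hochberg adjustment). The median of the 34 was -0.02 under low-fat and -0.06 under high-fat feeding.

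**Figure D4:**
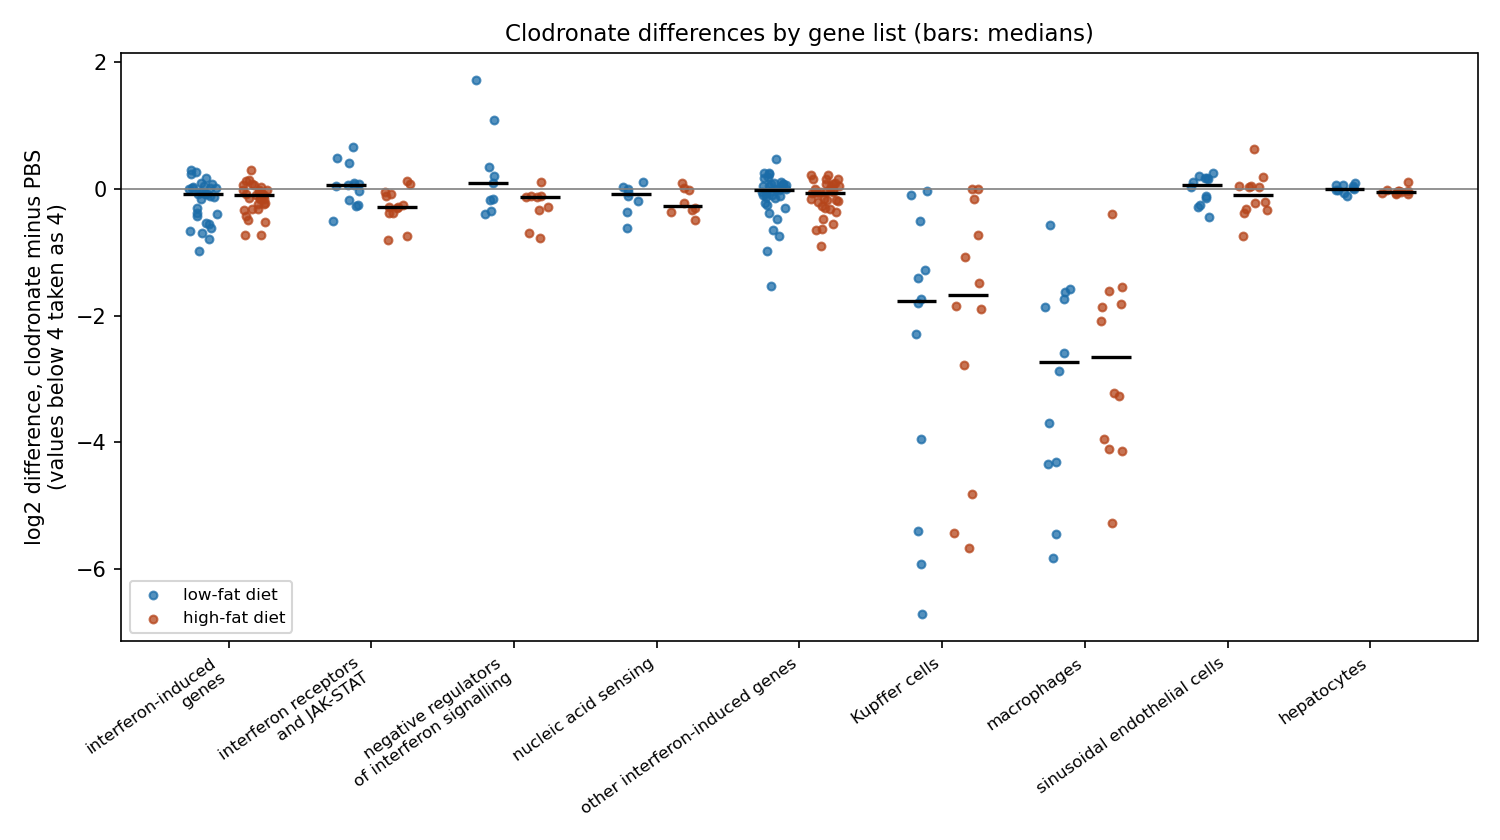
Points are log2 differences, clodronate minus PBS, of the detected genes of each list on the low-fat diet (blue) and the high-fat diet (orange), with values below 4 taken as 4 and a black bar at the median. The medians are -0.08 and -0.09 for the interferon-induced genes and lie between -0.28, for receptors and JAK-STAT genes on the high-fat diet, and 0.09, for the inhibitors on the low-fat diet, over the pathway lists, with Cish and Socs2 as the high points on the low-fat diet. The Kupffer cell and macrophage lists centre between -1.67 and -2.74.

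The high-fat diet gave no call among these genes. Averaged over the injections, 0 of the 31 genes rose and 0 fell with the high-fat diet (limma with Benjamini-Hochberg adjustment; 3 at an unadjusted p under 0.05), while over all genes 71 fell, 0.821%, and 75 rose, 0.867%. These 146 calls over all genes became 0 without the mean-dependent prior, and lay between 37 and 301 under the other settings. Over all genes tested, 1141 of 8650 were at an unadjusted p under 0.05 for diet (limma). The 3 interferon-induced genes at that level were Bst2, Ly6e and Gbp6. Bst2 was at 10.42 and 10.45 in the low-fat pools and at 10.22 and 10.14 in the high-fat pools, with no overlap, a mean difference of -0.26 ± 0.07 (SD of the differences under the 2 injections, n = 2; adjusted p = 0.196 by limma with Benjamini-Hochberg adjustment). Ly6e was at 12.42 and 12.37 in the low-fat pools and at 12.26 and 12.21 in the high-fat pools (mean -0.16; adjusted p = 0.291 by limma with Benjamini-Hochberg adjustment). Gbp6 was higher on the high-fat diet in both pairs, by 0.13 and 0.59 (adjusted p = 0.351 by limma with Benjamini-Hochberg adjustment), and its second probe set by 0.31 and 0.33.

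With PBS, the median high-fat minus low-fat difference was 0.02, with 17 genes above 0 and 14 below. Over all genes the median was 0.0, with 49.5% above 0 and 48.9% below. Xaf1, at -0.62, was the 1 gene 1.5-fold or more lower, and 0 were as much higher, where 1.47% of all genes were lower and 2.15% higher. With clodronate the median was -0.03, with 12 above 0 and 19 below, beside -0.08 and 64.9% below 0 over all genes. Gbp6 was the 1 gene 1.5-fold or more higher and 0 were lower, where 1.69% of all genes were higher and 4.79% lower. That median changed sign with the scaling: with each array centred on its median it was 0.070, with 9 genes below 0. The median over all genes tested moved with it, to 0.004. The diet and clodronate comparisons use the same 4 arrays, so the high value of the low-fat PBS pool for Xaf1, Ifit3 and Oasl2 enters both, as -0.55, -0.70 and -0.53 for clodronate on the low-fat diet and as -0.62, -0.45 and -0.49 for diet with PBS.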

How the data were processed

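Values were used as deposited, in log2 units, after the authors' GCRMA (version 2.24.1, per the submitters' processing notes), which models background from probe sequence and equalises the arrays, and can hide a shift shared by most genes. The table had 45101 probe sets, with array medians from 2.73 to 2.79. Where several probe sets carried only 1 gene's symbol in the platform annotation, the brightest on average stood for it. Genes reaching 4 on any array, 8650 in all, entered the tests. For pairs of arrays, values below 4 were taken as 4 and genes 1.5-fold or more apart were counted. Each factor, averaged over the other, was tested two-sided in an additive limma model (limma 3.58.1, R 4.3.3) with 1 residual degree of freedom, a mean-dependent prior (8.46 degrees of freedom) and Benjamini-Hochberg adjustment at 0.05; values below 4 were left as deposited there. The residual holds any unequal effect of clodronate on the diets. Its p-values measure the spread between these pooled arrays, which may be technical, not between mice. With 1 array per group, their number limits the precision. The model was also run on simulated arrays that held no unequal effect of clodronate on the diets. Their means and spread were taken from the fit to these data, so that run was no independent check. Tables and plots used Python 3.11.15, numpy 2.4.6, pandas 2.3.3 and matplotlib 3.10.9.

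The members and gene lists were chosen with earlier results of these data known. Every detected member was named, and of each pathway list up to 6 detected genes with the largest mean clodronate difference in size, with the interferon receptors in any case. The counts of arrays that do not overlap, of probe sets that share a sign and of genes within 0.2 were added after the values were seen. Genes without a probe set of 1 symbol are not analysed here. Alternatives changed the prior, the other factor, scaling, filter, limit and probe set rule.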

Additional observations from a re-analysis of the deposited data

Results flagged for a closer look

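Among the interferon-induced genes and the pathway genes chosen by the naming rule, 6 had a clodronate difference with opposite signs on the diets, at least 0.2 (log2) in size on each, and the difference between the diets was not tested because each group was 1 array. Opposite signs of any size were seen in 18 of the 31 interferon-induced genes (58.1%), beside 52.5% of all genes tested. The clodronate differences were 1.5-fold or more apart between the diets in 2 of the 31 (6.45%), beside 9.06% of all genes tested. The share of all genes that meet the limit of 0.2 was not counted. The values below are the high-fat minus the low-fat clodronate difference. Among the interferon-induced genes it was 0.86 for Xaf1 and -0.46 for Zbp1. Among the receptors it was -1.04 for Ifnar1, the type I receptor chain, and -0.77 for Ifngr2, which was near the limit of 4. The 2 cytokine-inducible inhibitors had the largest values, -2.50 for Cish, at 5.44, 7.17, 5.58 and 4.80 in the order low-fat PBS, low-fat clodronate, high-fat PBS and high-fat clodronate, and -1.78 for Socs2, at 8.12, 9.22, 7.74 and 7.06. Pml, a nuclear body protein that the naming rule did not choose, also met these limits, at 0.26 and -0.27.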

How the results depend on the processing

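Of 62 summary values recomputed under other settings, 45 stayed within the limit set (1.5 times for a count, 0.1 for a median log2 difference) and 17 moved. The 1 interferon-induced gene called for clodronate, Trim30a, became 0 with no mean-dependent prior, without the other factor, with arrays centred on their medians, with quantile normalization, with no filter, with values below 4 set to 4, and with every probe set on its own (limma with Benjamini-Hochberg adjustment, adjusted p from 0.0801 to 0.215, with 4 or 5 genes at an unadjusted p under 0.05); it stayed called with a filter of 6 and with the mean of probe sets (0.00691 and 0.0258). The cause was not tested. Calls over all genes for clodronate went from 94 to between 39 and 79 under the 7 settings that lost it. The diet count stayed at 0, while diet calls over all genes, 146, became 0 with no mean-dependent prior, 37 without the other factor, 42 with no filter, 60 with values below 4 set to 4 and with every probe set, 52 with the mean of probe sets and 301 with a filter of 6. Of genes 1.5-fold apart, the 5 on the low-fat diet became 2 with the mean of probe sets, the 2 on the high-fat diet became 1 with a floor of 5, and the 1 of each diet comparison became 0 with the mean of probe sets; at 2-fold all became 0. The median diet difference with clodronate, -0.03, was 0.070 with centred arrays and 0.081 with quantile normalization. Over all genes tested the same median was -0.08, 0.004 and 0.001 in that order. No paired analysis was possible because each group was 1 array without replicate numbers, and leaving out an array would leave no residual degrees of freedom.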
